A study of Mus musculus with 13 samples.

Results

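Interleukin-1 (IL-1) family and inflammasome genes were followed through 13 mouse mRNA libraries. The 10 genes were chosen by symbol: the cytokines Il1a, Il1b and Il18, the inhibitors Il1rn and Il1r2, and the inflammasome genes Nlrp3, Pycard, Casp1, Casp4 and Gsdmd. All 10 were present among the 21073 genes of the deposited table. All libraries came from C57BL/6J mice immunized with the myelin peptide MOG35-55 in complete Freund's adjuvant, which is how experimental autoimmune encephalomyelitis (EAE) is raised in mice as a stand-in for multiple sclerosis. DKI mice carry knock-in changes that leave the transcription factor STAT5 unable to form tetramers. For the Th17 libraries, cells of spleen and lymph nodes were taken on day 14, grown for 3 days with the peptide in Th17 conditions, and sorted as CD4+ T cells. The mice that gave them had received no pertussis toxin. They comprised DKI cells with the chemokine CCL17 added during expansion (3 libraries), DKI cells expanded without added CCL17 (3 libraries), DKI cells (2 libraries) and WT cells (2 libraries). The labels of these DKI and WT cells name no added CCL17. The myeloid libraries were sorted on day 14 from DKI mice that had also received pertussis toxin: spinal cord APCs (antigen-presenting cells that derive from monocytes), spinal cord monocytes and bone marrow monocytes, with 1 library each. No WT myeloid library was used here, so nothing in the myeloid comparisons separates DKI from WT. The labels do not say whether replicate libraries came from separate animals, and p-values therefore measure the spread between these libraries, which may be technical.

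IL-1 alpha and IL-1 beta signal through the receptor IL1R1, whereas IL-18 has a receptor of its own. IL-1 beta and IL-18 are made as precursors that caspase-1 cuts once an inflammasome, a complex of a sensor such as NLRP3 with the adaptor ASC, has formed. Caspase-11, the product of mouse Casp4, senses cytosolic lipopolysaccharide, and both caspases cut gasdermin D into a fragment that opens pores in the cell membrane. RNA levels do not show whether these proteins were cut. In EAE, IL-1 made by myeloid cells is known to act on Th17 cells, which carry IL1R1.

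Promoters in the RefSeq table (GRCm38.p6) were available for 9 of the 10 genes, all except Gsdmd. Each promoter spans 250 bases before and 50 after the transcript start, and motifs were searched as exact letters on both strands. The following stretches are the 125 bases before the start. The sequences of Il1a and Il1b are shown because these cytokine genes had the largest differences between monocyte libraries, that of Il1r2 because it holds the only STAT-type match among the members, and that of Casp4 because it holds the most matches to the kappa B pattern. The capitals mark TATAAA in Il1a and Il1b, TTCNNNGAA in Il1r2 and, in Casp4, the kappa B pattern on either strand, written here as GGG followed by 5 bases of any kind and then CC.
Il1a, chr2:129309973-129310097, minus strand: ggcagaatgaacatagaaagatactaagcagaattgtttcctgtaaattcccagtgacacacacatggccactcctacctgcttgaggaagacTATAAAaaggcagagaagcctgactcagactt
Il1b, chr2:129371140-129371264, minus strand: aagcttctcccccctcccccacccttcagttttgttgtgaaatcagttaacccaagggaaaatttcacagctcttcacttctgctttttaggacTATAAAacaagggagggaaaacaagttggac
Il1r2, chr1:40085968-40086092, plus strand: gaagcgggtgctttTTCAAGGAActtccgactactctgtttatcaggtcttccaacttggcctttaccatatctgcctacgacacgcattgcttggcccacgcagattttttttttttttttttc
Casp4, chr9:5308724-5308848, plus strand: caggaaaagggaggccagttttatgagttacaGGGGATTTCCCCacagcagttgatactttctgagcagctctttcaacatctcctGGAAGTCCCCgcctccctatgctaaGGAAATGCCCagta

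TATAAA began at position -32 from the start of Il1a and at -31 from that of Il1b, and 13.6% of 32851 promoters held it on either strand. The STAT-type pattern of Il1r2 began at -111 and was present in 8.3% of promoters. The kappa B pattern was common, in 50.8% of promoters. Casp4 held 5 matches, of which the 3 beginning at -93, -92 and -91 overlap, with the others at -39 and -14. An interferon-type pattern, GAAA repeated after 2 bases of any kind, was found in 3.44% of promoters and in none of the members' windows. A match describes the letters only, since no binding was measured.

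The libraries held an estimated 12600000 to 32000000 assigned reads. Values are given as levels in log2(RPKM + 1), where RPKM is the read number scaled to gene length and to the assigned reads of the library, so that levels of different genes can be set side by side. The summed RPKM of 8 T cell markers was 2150 to 3120 in the Th17 libraries and at most 29.8 in the myeloid libraries. Markers of classical monocytes summed to 2460 RPKM in cord APCs, 4920 RPKM in cord monocytes and 7020 RPKM in marrow monocytes, and to 257 to 583 RPKM in the Th17 libraries. The Th17 libraries also held RNA of myeloid marker genes (10 genes, among them Lyz2, Csf1r and Cd14), with sums of 672 to 896 in DKI cells with CCL17, 707 to 1100 in DKI cells without CCL17, 21.3 to 36.8 in DKI cells and 50.7 to 94.0 in WT cells. These sums are repeated below where they move with a member.

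The members fell into levels that varied widely between groups and levels that hardly did. Il1b covered the widest span of any member, with 3.42, 4.12 and 4.32 in DKI Th17 cells with CCL17, 3.32, 4.37 and 4.45 without CCL17, 1.41 and 2.44 in DKI cells, 2.42 and 2.54 in WT cells, 10.87 in cord APCs, 11.09 in cord monocytes and 2.33 in marrow monocytes. The order of its group means was cord monocytes, cord APCs, DKI Th17 without CCL17, with CCL17, WT Th17, marrow monocytes and DKI Th17. The Th17 groups with and without CCL17 overlapped, and the marrow monocyte level lay between the 2 DKI Th17 libraries. Il1a, whose product is active already as a precursor, had 3.12, 4.41 and 4.53 in DKI Th17 cells with CCL17, 3.48, 4.76 and 4.87 without CCL17, 0.64 and 0.83 in DKI cells, 1.13 and 0.88 in WT cells, 7.56 in cord APCs, 7.82 in cord monocytes and 0.29 in marrow monocytes. Its 3 levels, high in the cord, intermediate in the CCL17 experiment and near the floor elsewhere, did not overlap. Il18 was low throughout the Th17 libraries, with 1.54, 2.33 and 2.12 with CCL17, 1.54, 2.40 and 2.35 without CCL17, 1.80 and 1.37 in DKI cells, and 1.68 and 1.43 in WT cells. Its levels in cord APCs, cord monocytes and marrow monocytes were 3.68, 4.58 and 3.33, all above every Th17 library.

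The inhibitors had opposite distributions. Il1rn encodes the receptor antagonist, which binds IL1R1 without signalling. Its levels were 5.48, 6.12 and 6.13 with CCL17, 5.49, 6.39 and 6.40 without CCL17, 3.41 and 2.20 in DKI Th17 cells, 3.89 and 2.74 in WT Th17 cells, 8.42 in cord APCs, 9.07 in cord monocytes and 2.64 in marrow monocytes. The order of its group means was that of Il1a, and the DKI Th17, WT Th17 and marrow monocyte levels overlapped. Il1r2 encodes the decoy receptor, which captures IL-1 and lacks a signalling domain. It was the only member whose Th17 libraries all lay above all myeloid libraries, with 8.11, 8.59 and 8.72 with CCL17, 8.33, 8.72 and 8.76 without CCL17, 8.75 and 7.40 in DKI cells, 7.58 and 7.46 in WT cells, 6.02 in cord APCs, 5.30 in cord monocytes and 3.56 in marrow monocytes. Neighbouring Th17 groups overlapped for this gene. Because the cell types came from different tissues and procedures, library, tissue and cell type cannot be told apart in these orders.

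**Figure D1:**
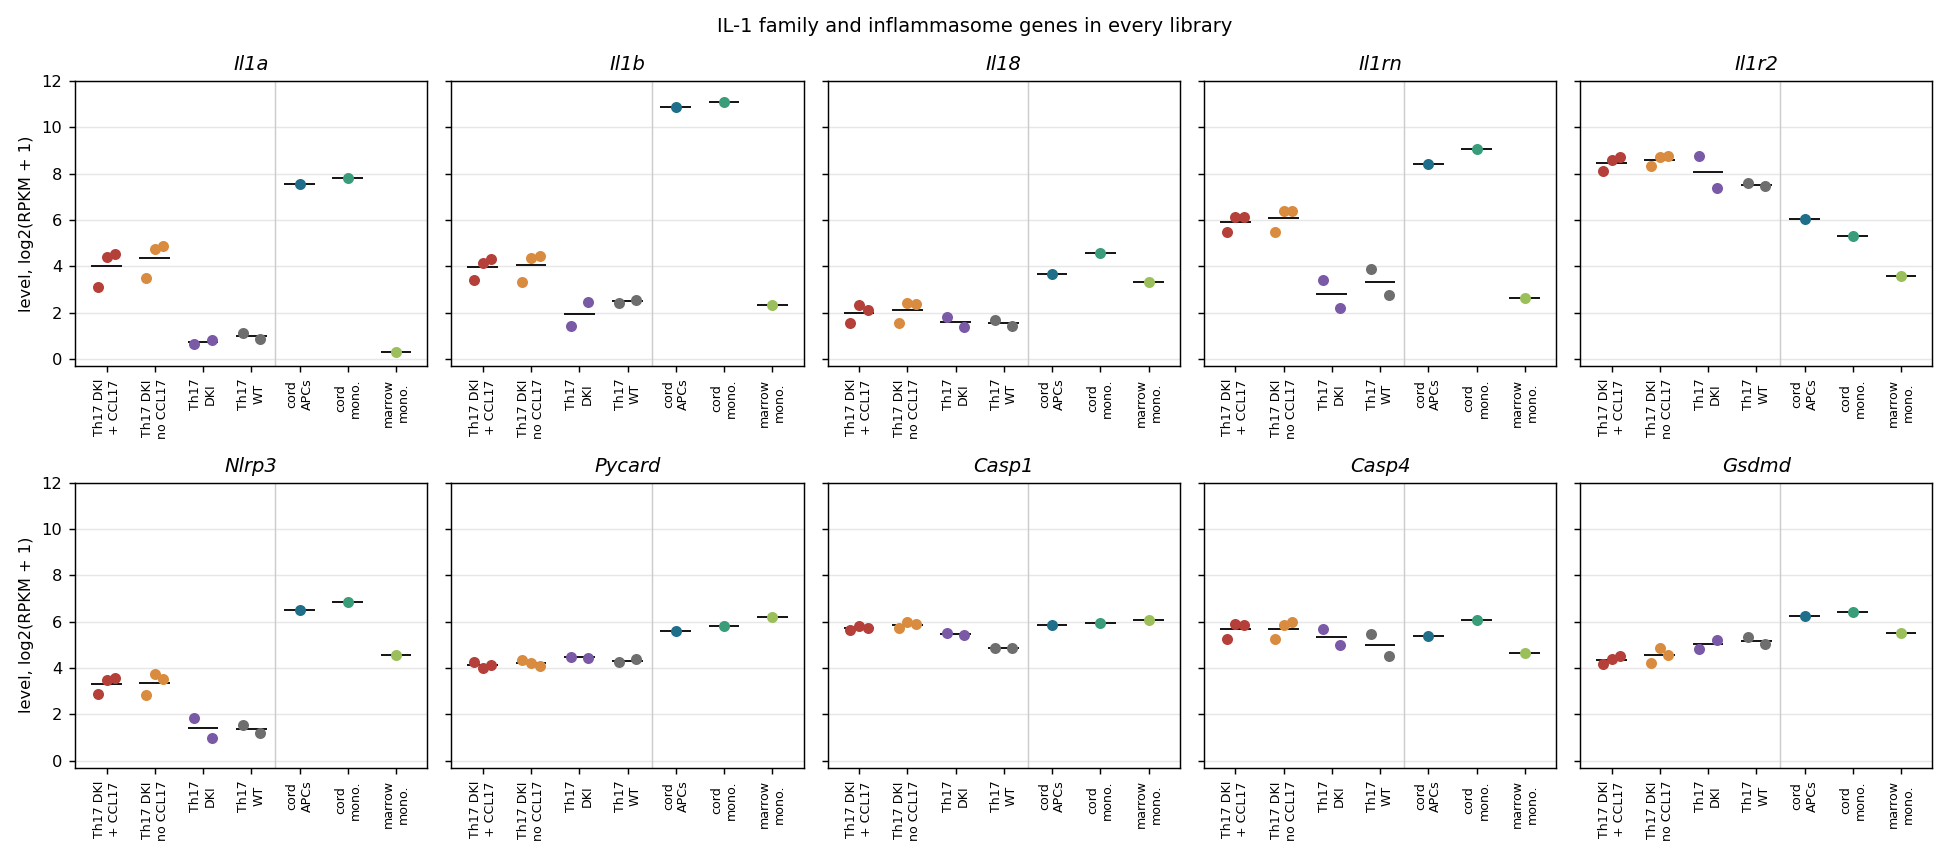
Level of each of the 10 genes in log2(RPKM + 1) (y axis) in each of the 13 libraries (points) by group (x axis), with black lines at the group means; the myeloid groups, right of the grey line, have 1 library each. Il1b reached 11.09 in cord monocytes against 2.33 in marrow monocytes, whereas Casp1 lay between 4.85 and 6.08 everywhere and Il1r2 was higher in every Th17 library than in any myeloid library.

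The inflammasome genes were expressed in every library. Nlrp3, the sensor, had the widest span of the 5, with 2.87, 3.46 and 3.56 in DKI Th17 cells with CCL17, 2.83, 3.72 and 3.52 without CCL17, 1.85 and 0.98 in DKI cells, 1.52 and 1.20 in WT cells, 6.50 in cord APCs, 6.83 in cord monocytes and 4.56 in marrow monocytes. Every myeloid library exceeded every Th17 library, and the DKI and WT libraries overlapped. Pycard, which encodes the adaptor ASC, had 4.27, 3.98 and 4.14 with CCL17, 4.33, 4.21 and 4.08 without CCL17, 4.48 and 4.45 in DKI cells, 4.25 and 4.39 in WT cells, 5.61 in cord APCs, 5.81 in cord monocytes and 6.19 in marrow monocytes. Its highest level was thus in the marrow. Casp1 had 5.63, 5.81 and 5.72 with CCL17, 5.73, 6.00 and 5.88 without CCL17, 5.51 and 5.42 in DKI cells, 4.86 and 4.85 in WT cells, 5.84 in cord APCs, 5.93 in cord monocytes and 6.08 in marrow monocytes. The 8 Th17 libraries of DKI origin ranged from 5.42 to 6.00 and the 2 WT libraries from 4.85 to 4.86. The CCL17 experiment held no WT library, so that for its libraries set and genotype cannot be told apart. Between the DKI and WT groups, 39.9% of all genes tested did not overlap. Casp4 ranged from 4.52 in a WT Th17 library to 6.07 in cord monocytes, with overlap between most neighbouring groups. Gsdmd ranged from 4.18 in a Th17 library with CCL17 to 6.43 in cord monocytes, and its 2 cord libraries were the highest.

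The cord and marrow monocyte libraries address how these genes differ between monocytes of the inflamed tissue and monocytes of the marrow that supplies them. The cytokine genes, the inhibitor genes, Nlrp3, Casp4 and Gsdmd were higher in cord monocytes, and Pycard and Casp1 were not. Of the 10 members, 4 were at least 4-fold higher in cord monocytes (Il1a, Il1b, Il1rn and Nlrp3) and 0 were as much lower. Here and below, counts at 4-fold take a difference of at least 2 in log2(RPKM + 1), whereas printed ratios are of RPKM. Some low genes with an RPKM ratio past 4 are therefore not counted. Over all 8182 genes that reached 5 RPKM in 1 or both libraries, 6.23% were at least 4-fold higher and 5.13% at least 4-fold lower, 11.4% in all. The median log2 difference was 1.57 over the members and -0.37 over these genes. With 1 library per group there is no test, and the intervals given are 95% exact binomial intervals on estimated reads, which cover counting error only.

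Il1b had 2180 RPKM in cord monocytes and 4.04 RPKM in marrow monocytes, a 539-fold ratio (interval 465 to 629). Il1a had 224 RPKM in cord monocytes and 0.220 RPKM in marrow monocytes, from an estimated 11787 and 14 reads, so that its 1020-fold ratio had the wide interval of 603 to 1850. Il1rn had 537 RPKM in cord monocytes and 5.24 RPKM in marrow monocytes, a 103-fold ratio (93.5 to 113). Of these 3 genes, Il1b was the most abundant in the cord library and Il1rn in the marrow library. Nlrp3 had 113 RPKM in cord monocytes and 22.6 RPKM in marrow monocytes, a 4.99-fold ratio (4.79 to 5.20). Il1r2 was 3.55-fold (3.20 to 3.94), Casp4 2.72-fold (2.53 to 2.92), Il18 2.54-fold (2.18 to 2.97) and Gsdmd 1.89-fold (1.80 to 1.99) higher in cord monocytes. Casp1 had 60.1 RPKM in cord monocytes and 66.8 RPKM in marrow monocytes, a ratio of 0.900 (0.854 to 0.950). Its log2 difference of -0.15 turned to 0.22 when the median difference over all genes counted was subtracted, so that its direction depended on the scaling. Pycard had 54.9 RPKM in cord monocytes and 72.2 RPKM in marrow monocytes, a ratio of 0.761 (0.727 to 0.796). Its log2 difference of -0.39 was close to the median of -0.37 over all genes counted, so that its size too depended on the scaling.

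The same contrast held other genes of the pathway, taken from lists of its components. Il18bp, which encodes the secreted IL-18 antagonist, was 26.6-fold higher in cord monocytes (22.9 to 31.1), against the 2.54-fold of Il18. Of 19 genes of IL-1 receptor signalling, 18 passed the RPKM filter, and 4 of these were at least 4-fold higher and 0 lower. They were Tnfaip3 (52.5-fold), Nfkbia (14.2-fold), Nfkbiz (13.7-fold) and Irak2 (5.60-fold). The first 2 encode feedback inhibitors of NF-kappa B. Of 16 inflammasome regulators, 4 were at least 4-fold higher, among them the guanylate-binding proteins Gbp2 (13-fold) and Gbp5 (11.2-fold) and the membrane-rupture gene Ninj1 (6.34-fold), and 1 was lower, the protease inhibitor gene Serpinb1a, with 1.69 RPKM in cord monocytes and 46.4 RPKM in marrow monocytes. Of 12 further sensors, 8 passed the filter and 0 reached 4-fold, with Aim2 at 0.939-fold and Nlrc4 at 0.951-fold.

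Markers of other cells differed between these libraries too. The summed RPKM of 10 microglia markers was 476 in cord monocytes and 145 in marrow monocytes, with 8 of 8 that passed the filter higher, and that of 12 neutrophil markers was 868 in cord monocytes and 7080 in marrow monocytes, with 8 of 10 at least 4-fold lower. The part of other cells in the members' differences was not tested. In bulk RNA, fewer cells of a type and less RNA per cell cannot be told apart.

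Between the cord APC and cord monocyte libraries, none of the 10 members differed by 4-fold. Few genes did, 0.32% of the 7499 genes counted by the same filter, 0.24% higher and 0.08% lower. A count of 0 among 10 genes therefore says little about the members. This comparison and the preceding one share the cord monocyte library. In all members except Il1r2 the APC level was below the monocyte level, and the median log2 difference was -0.24, against 0.03 over all genes counted. Il18 had 11.8 RPKM in APCs and 23.0 RPKM in monocytes, a ratio of 0.513 (0.438 to 0.597). Casp4 had a ratio of 0.625 (0.585 to 0.667) and Il1rn one of 0.636 (0.626 to 0.647). The other members that were lower had ratios from 0.791 for Nlrp3 to 0.938 for Casp1, whose interval reached 0.996. Il1r2 had 64.0 RPKM in APCs and 38.4 RPKM in monocytes, a 1.67-fold ratio (1.56 to 1.78). Of the other pathway genes, Mefv, which encodes the sensor pyrin, had a ratio of 0.446 (0.423 to 0.469), Gbp2 one of 0.512 (0.504 to 0.519) and Cd36, a scavenger receptor gene, one of 1.87 (1.69 to 2.07). Microglia markers summed to 1210 RPKM in APCs and 476 RPKM in monocytes, and dendritic cell markers to 148 RPKM in APCs and 35.9 RPKM in monocytes. Neutrophil markers summed to 1160 RPKM in APCs and 868 RPKM in monocytes, with 7 of 8 that passed the filter higher and 2 of them at least 4-fold. Classical monocyte markers summed to 2460 RPKM in APCs and 4920 RPKM in monocytes, with 4 of 8 at least 4-fold lower. Their part in these differences was not tested.

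**Figure D2:**
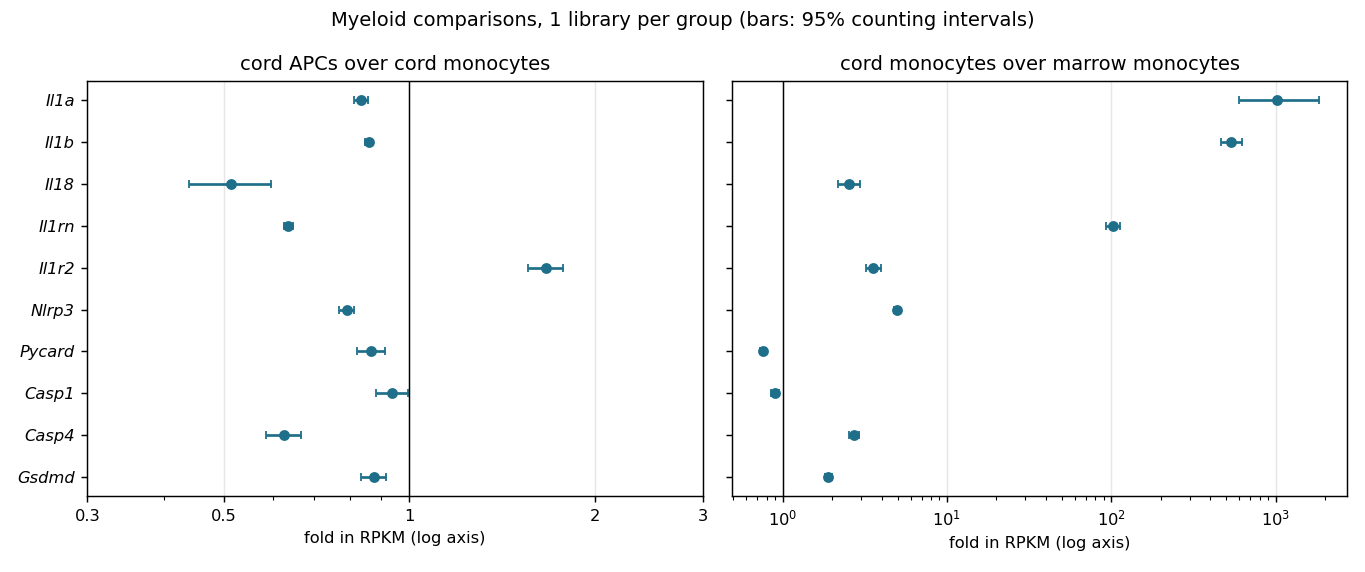
Ratio of RPKM (x axis, log scale) for each of the 10 genes (y axis) between cord APCs and cord monocytes (left) and between cord monocytes and marrow monocytes (right, wider axis); points are ratios of 1 library each and bars are 95% counting intervals. The right panel runs from 0.761 for Pycard to 1020 for Il1a, whereas in the left panel Il1r2 at 1.67 is the only gene above 1.

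Among the Th17 libraries, the members differed most between DKI cells of the CCL17 experiment grown without CCL17 and the other DKI cells. Both groups are DKI, and neither label names added CCL17, so that the comparison sets 2 sets of libraries side by side and any difference in how the sets were made cannot be told apart from it. Of the 10 members tested, 5 were called higher and 0 lower, at a Benjamini-Hochberg adjusted p under 0.05 over 11507 genes in limma. In this comparison 33.2% of all genes were called, 15.4% higher and 17.8% lower, and 44.3% had an unadjusted p under 0.05. Without replicate 3 of the cells without CCL17, 2513 genes were called in place of 3823, and 5 members. The median log2 fold was 0.52 over the members and -0.01 over all genes.

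Il1a had 10.2, 26.1 and 28.3 RPKM in DKI cells without CCL17, against 0.557 and 0.772 RPKM in DKI cells. Its log2 fold was 3.64 (SE 0.50, limma adjusted p = 0.00124). Il1rn had 43.9, 82.7 and 83.2 RPKM in DKI cells without CCL17, against 9.61 and 3.60 RPKM in DKI cells, with a log2 fold of 3.29 (SE 0.47, limma adjusted p = 0.00151). Both genes separated the groups without overlap, and in both the first replicate without CCL17 was the lowest of its group. Il1b had 9.01, 19.7 and 20.9 RPKM in DKI cells without CCL17, against 1.66 and 4.44 RPKM in DKI cells, with a log2 fold of 2.12 (SE 0.42, limma adjusted p = 0.00617). Nlrp3 had 6.12, 12.2 and 10.4 RPKM in DKI cells without CCL17, against 2.60 and 0.966 RPKM in DKI cells, with a log2 fold of 1.95 (SE 0.34, limma adjusted p = 0.00365). Casp1 rose less, with 52.1, 62.9 and 57.8 RPKM in DKI cells without CCL17, against 44.6 and 41.9 RPKM in DKI cells, and a log2 fold of 0.40 (SE 0.09, limma adjusted p = 0.0128). The Casp1 call was lost without DKI replicate 2 (log2 fold 0.36, limma adjusted p = 0.0594) and in a fit of the 5 libraries alone (limma adjusted p = 0.0535).

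The other 5 members were not called. Il1r2 had a log2 fold of 0.53 (SE 0.35), but its 2 DKI libraries lay far apart, at 429 and 168 RPKM. Without DKI replicate 1 the fold was 1.20 and was called (limma adjusted p = 0.0111), and without DKI replicate 2 it was -0.15. Il18 had a log2 fold of 0.51 (SE 0.31), Casp4 one of 0.35 (SE 0.35), Pycard one of -0.26 (SE 0.11) and Gsdmd one of -0.47 (SE 0.20). Gsdmd was called lower without replicate 2 of the cells without CCL17 (log2 fold -0.63, limma adjusted p = 0.0482). Counting Pycard, 6 of the 10 members did not overlap between the groups, as did 55.6% of all genes.

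Other pathway genes moved in both directions in the same comparison. Il18bp rose (log2 fold 1.17, SE 0.23, limma adjusted p = 0.00564). Il1f9, the older symbol of the IL-36 gamma gene Il36g, had levels of 1.40, 1.44 and 1.45 without CCL17 and was listed at 0 in both DKI libraries (limma adjusted p = 0.000244). Of 7 tested genes for IL-1 family receptors, 0 rose and 4 fell: Sigirr, an inhibitory receptor, by 0.97 on the log2 scale, the IL-18 receptor chains Il18r1 by 1.11 and Il18rap by 1.15, and the IL-33 receptor Il1rl1 by 1.08. The Il18rap call was lost without either DKI replicate 1 or replicates 2 or 3 of the cells without CCL17 (limma adjusted p = 0.18, 0.0908 and 0.0956). Il1r1 itself had 5.08, 5.15 and 5.21 without CCL17, against 5.32 and 4.22 in DKI cells, and was not called (log2 fold 0.37, SE 0.26). Its fold was 0.93 and called without DKI replicate 1 (limma adjusted p = 0.00101), and -0.18 without DKI replicate 2.

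Of the 19 signalling genes, 2 rose and 6 fell, with the kinase genes Irak1 (log2 fold -0.45), Irak4 (-0.41) and Ikbkb (-0.54) and the adaptor gene Myd88 (-0.48) among those that fell. Of 5 other sensors tested, Mefv (log2 fold 1.92) and Naip2 (1.01) rose and Aim2 fell by 0.28. Naip2 has close paralogs, and reads could have been split among them. The Naip2 call was lost without DKI replicate 2 and without replicates 2 or 3 of the cells without CCL17 (limma adjusted p = 0.0909, 0.0523 and 0.055). The Aim2 call was lost without DKI replicate 1 and without each of replicates 1, 2 and 3 of the cells without CCL17 (limma adjusted p = 0.24, 0.0744, 0.0728 and 0.144). Of 16 regulators, 8 rose and 2 fell. Those with the smallest p were Ctsb, a lysosomal protease gene (log2 fold 2.01), Cd36 (3.69), Ninj1 (2.39) and Gsdme, a gasdermin gene (0.58). The Gsdme call was lost with quantile normalization (log2 fold 0.31, limma adjusted p = 0.102).

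Markers of myeloid cells moved with these genes. All 10 were called higher without CCL17 than in DKI cells, with a median log2 fold of 3.84 and a range of 2.70 to 5.91, and their summed RPKM was 707 to 1100 without CCL17, against 21.3 to 36.8 in DKI cells. Of 10 tested neutrophil markers 9 were called higher (sums of 386 to 680 RPKM without CCL17, against 4.62 to 9.15 RPKM in DKI cells), as were 5 of 5 B cell markers (57.1 to 90.1 RPKM without CCL17, against 6.45 to 15.5 RPKM in DKI cells). Of 8 T cell markers 5 were called lower, with a median log2 fold of -0.31. The part of these cells in the members' differences was not tested.

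The Th17 levels can be set against the cord monocyte library, in which 7 of the 10 members had their highest level of all groups. In DKI cells with CCL17, DKI cells without CCL17, DKI cells and WT cells, the median of the 10 myeloid markers was 7.72%, 9.32%, 0.283% and 0.843% of its RPKM in cord monocytes. Il1a stood at 7.44%, 9.58%, 0.296% and 0.453% in the same groups, and Il1rn at 11.2%, 13%, 1.23% and 1.81%. Nlrp3 stood at 8.01%, 8.49%, 1.58% and 1.41%. Il1a thus lay within the range of the myeloid markers in each of the 4 groups, which in cells without CCL17 ran from 1.16% for Cd14 to 25.3% for Cd68. Il1rn and Nlrp3 also lay within that range except in DKI cells, where both were above every marker (highest 0.957%). Il1b was below the marker median in each group, at 0.69%, 0.761%, 0.14% and 0.211%. In the CCL17 experiment it was below every marker, the lowest of which was Cd14, at 0.914% with CCL17 and 1.16% without CCL17. Casp1 (86.2%, 95.8%, 71.9% and 46.5%), Casp4 (77.3%, 79.2%, 61.9% and 49.2%), Pycard (30.2%, 31.9%, 38.4% and 34.5%) and Gsdmd (23.0%, 26.9%, 37.4% and 41.5%) had group means above those of every one of the 10 markers in each group. For Gsdmd and Pycard single libraries overlapped with Cd68. In cells without CCL17, Cd68 ran from 15.9% to 30.5%, Gsdmd from 20.7% to 33.1% and Pycard from 29.0% to 34.8%. With CCL17, Cd68 ran from 13.8% to 22.9% and Gsdmd from 20.2% to 25.6%. Il18 stood at 13.5%, 14.9%, 8.85% and 8.49%, within the range of the markers in the cells of the CCL17 experiment and above every marker in DKI cells (highest 0.957%) and WT cells (highest 2.03%). Il1r2 stood at 935%, 1020%, 776% and 475%. These percentages compare whole libraries with 1 cord library and are a description.

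**Figure D3:**
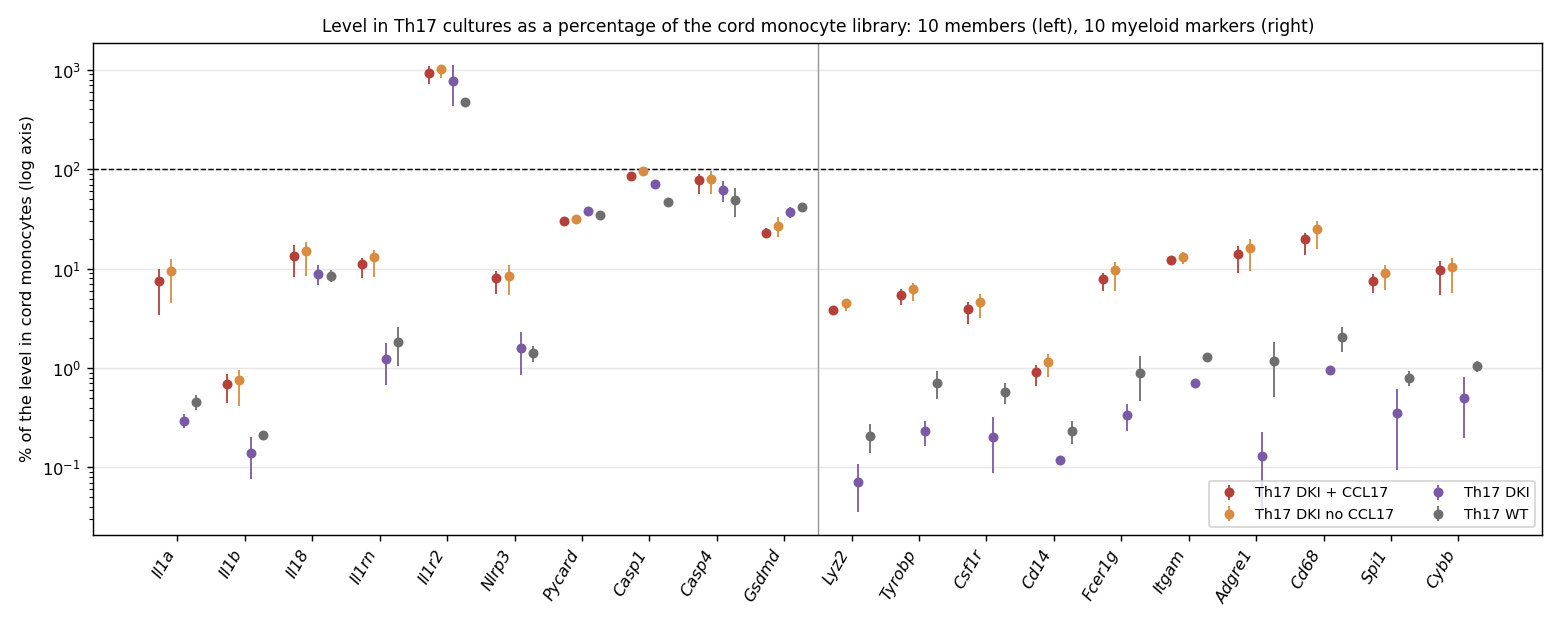
Level in the Th17 groups as a percentage of the RPKM in the cord monocyte library (y axis, log scale) for the 10 members (left) and 10 myeloid markers (right); points are group means, bars run from the lowest to the highest library, and the dashed line marks 100%. Il1a, Il1rn and Nlrp3 had values near those of the markers in cells without CCL17. The means of Pycard, Casp1, Casp4 and Gsdmd lay above those of the markers in all 4 groups, and that of Il1r2 above 100%. In cells without CCL17, the bars of Pycard and Gsdmd overlap that of Cd68.

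Added CCL17 was compared with its absence in the 6 libraries of that experiment, and no member was called. Of 11297 genes tested in limma, 0.0% were called, with a smallest adjusted p of 0.976, and 411 genes (3.64%) had an unadjusted p under 0.05. All 10 members had a negative log2 fold, from -0.35 for Il1a (SE 0.50) to -0.03 for Casp4 (SE 0.25), with a median of -0.12 against -0.01 over all genes. The members' limma adjusted p was 0.999 for each. None of the 10 separated the groups without overlap, as 9.49% of all genes did. Il1a had 7.67, 20.3 and 22.1 RPKM with CCL17, against 10.2, 26.1 and 28.3 RPKM without CCL17. Replicate 1 was the lowest in both groups for Il1a and for every other member except Pycard.

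Within same-numbered pairs, Il1a was lower with CCL17 by a log2 difference of -0.36, -0.35 and -0.34. Casp1 was lower by a log2 difference of -0.10, -0.19 and -0.16. With differences rounded to 2 decimals, 5 of the 10 members were lower with CCL17 in 3 of 3 pairs: Il1a, Il1rn, Il1r2, Casp1 and Gsdmd. In pair 1 Il18 had 1.91 RPKM with CCL17 and 1.92 RPKM without CCL17, a difference that rounded to 0. Its log2 differences in pairs 2 and 3 were -0.07 and -0.23, so that without rounding Il18 too was lower in 3 of 3 pairs. Of all 11297 genes, counted without rounding, 2274 (20.1%) were lower in 3 of 3 pairs. With the replicate number as a block, no member passed the threshold either, and Il1a had the same log2 fold of -0.35 (SE 0.05, limma adjusted p = 0.0769). Without replicate 1 of both groups, an alternative chosen after seeing the data, 213 genes were called, and Il1rn was 1 of them, with a log2 fold of -0.27 (SE 0.04, limma adjusted p = 0.0245). Of the partner genes, 0 were called with all 6 libraries. The 10 myeloid markers had negative folds as well, with a median of -0.21 and summed RPKM of 672 to 896 with CCL17, against 707 to 1100 without CCL17. Their part in the members' differences was not tested.

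The remaining contrast, DKI over WT, bears on Th17 cells that lack STAT5 tetramers. Of the 10 members, 9 passed the filter on low values, all except Il1a, and 0 were called in limma. Among all 11078 genes 0.0% were called, with a smallest adjusted p of 0.0659, and 1879 genes (17.0%) had an unadjusted p under 0.05. Casp1 had the smallest adjusted p of the members. Its RPKM was 44.6 and 41.9 in DKI cells, against 28.1 and 27.9 in WT cells, and its log2 fold was 0.61 (SE 0.10, limma adjusted p = 0.093). Casp1 and Pycard were the 2 of 9 members whose groups did not overlap, as 39.9% of all genes did.

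The other members tested were not called either, and their log2 folds ran from -0.56 for Il1b to 0.55 for Il1r2. Il1r2 had 429 and 168 RPKM in DKI cells, against 190 and 176 RPKM in WT cells, with a log2 fold of 0.55 (SE 0.39, limma adjusted p = 0.478). Il1b had 1.66 and 4.44 RPKM in DKI cells, against 4.36 and 4.83 RPKM in WT cells, with a log2 fold of -0.56 (SE 0.46, limma adjusted p = 0.552). For both genes 1 DKI library lay close to the WT libraries and the other apart from them. Il1rn had a log2 fold of -0.51 (SE 0.51), Casp4 one of 0.36 (SE 0.39), Gsdmd one of -0.15 (SE 0.22), Pycard one of 0.15 (SE 0.12), Nlrp3 one of 0.05 (SE 0.37) and Il18 one of 0.03 (SE 0.34). The median was 0.05 over the 9 members and 0.03 over all genes.

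The calls depended on DKI replicate 2. Without it 580 genes passed the threshold, among them Casp1 (log2 fold 0.65, limma adjusted p = 0.0323) and Il1r2 (1.23, limma adjusted p = 0.0423), and the signalling receptor Il1r1 had a log2 fold of 1.10 (limma adjusted p = 0.0121), against 0.55 (SE 0.28, limma adjusted p = 0.337) with all libraries. Without DKI replicate 1, 4 genes were called and the log2 fold of Il1r2 was -0.12, and without WT replicate 2, 123 genes were called, none of them a member. Il1r1 and Il1r2 were both highest in DKI replicate 1 among the DKI and WT libraries. Myeloid markers differed here in the other direction, with 9 of 9 tested lower in DKI cells, 0 called, a median log2 fold of -0.93, and sums of 21.3 and 36.8 RPKM in DKI cells, against 94.0 and 50.7 RPKM in WT cells. Their part in the members' differences was not tested. The DKI libraries serve in both this comparison and that with the DKI cells without CCL17.

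**Figure D4:**
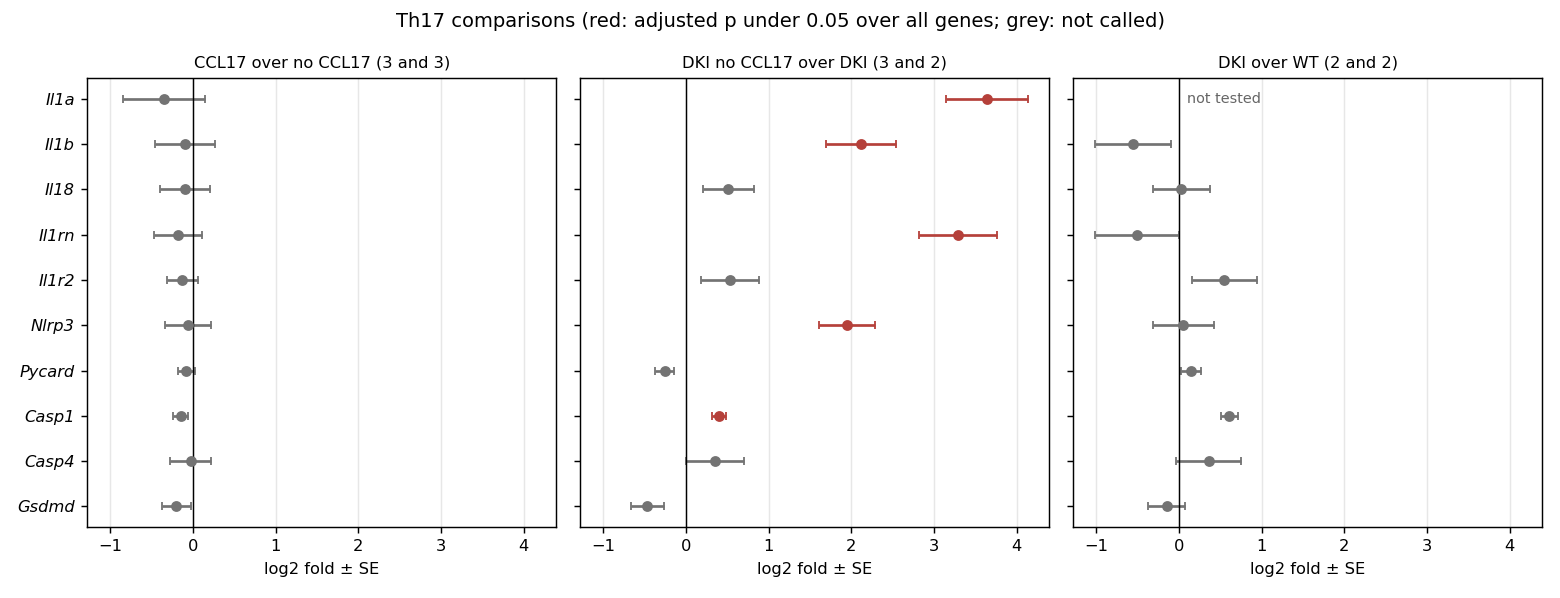
Log2 fold ± SE from limma (x axis) for each of the 10 genes (y axis) in the 3 Th17 comparisons, with the number of libraries in each group in the panel titles; red marks an adjusted p under 0.05 over all genes. Il1a, Il1b, Il1rn, Nlrp3 and Casp1 were called in the middle panel, with folds of 3.64, 2.12, 3.29, 1.95 and 0.40, and no gene was called in the others.

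Ratios within a library compare agonist with antagonist and signalling receptor with decoy. The RPKM of Il1rn over that of Il1b was 4.51, 4.17 and 3.64 in DKI Th17 cells with CCL17, 4.87, 4.19 and 3.98 without CCL17, 5.80 and 0.81 in DKI cells, 3.18 and 1.17 in WT cells, 0.183 in cord APCs, 0.247 in cord monocytes and 1.30 in marrow monocytes. Antagonist RNA was thus below agonist RNA in both cord libraries and in 1 DKI Th17 library, and above it elsewhere. The RPKM of Il1r2 over that of Il1r1 was 8.40 to 12.2 across the 10 Th17 libraries, 32.6 in cord APCs, 19.9 in cord monocytes and 47.5 in marrow monocytes. Decoy RNA exceeded receptor RNA in every library, although Il1r1 itself was low in the myeloid libraries, at 1.96 RPKM in cord APCs, 1.94 RPKM in cord monocytes and 0.228 RPKM in marrow monocytes.

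The genes whose profiles over the 7 group means were nearest to each member were sought among 10133 genes. Likeness was the Euclidean distance between centred profiles in log2 units. Nearest to Il1a were Anpep (0.70), Inhba (0.90) and Acod1 (0.91), to Il1rn Inhba (0.50), Basp1 (0.81) and Cxcl1 (1.03), and to Il1b the class II genes H2-Eb1 (1.22) and H2-Aa (1.23) and the cyclooxygenase gene Ptgs2 (1.23). Nearest to Nlrp3 were Arrdc4 (0.60), Cebpb (0.65) and Rab7b (0.68), and to Il1r2 Prxl2a (0.36), Slc39a4 (0.74) and Myo10 (0.76). The nearest genes to the other members were Pacsin2 (0.25) for Casp1, Xylt1 (0.26) for Pycard, Ifi211 (0.29) for Il18, Rmdn3 (0.39) for Casp4 and Pip5k1c (0.42) for Gsdmd. Among the members themselves Pycard and Gsdmd were the closest, at 1.23, followed by Casp1 and Casp4, at 1.33, and Il1a and Il1rn, at 1.35, whereas the member nearest to Il1r2 was Casp4, at 4.33. The myeloid points of these profiles rest on 1 library each.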

How the data were processed

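Per the labels' protocols, the 13 mRNA libraries were KAPA mRNA HyperPrep libraries. Subread and featureCounts were used with mm10, per the submitters' processing notes, and no version or setting of them is given in the sources used here. The authors' deposited table holds log2(RPKM + 1) for 21073 genes. A value of 0.0001 stood for no reads and was replaced by 0. Base 2 was checked by length-weighted sums, which were 972000 to 1010000 per library in base 2 and 7440000 to 14001000 in base e. The column of the cord APCs is named for monocyte-derived cells and was matched to that sample as the only one left. Assigned reads were estimated from the steps between low values, and 81.9% to 84.1% of such values lay within 0.1 reads of a whole number, where an even spread gives 20%. Intervals are Clopper-Pearson and cover counting error only. Of the identifiers, 20857 matched RefSeq, which supplied promoters and gene positions.

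The Th17 comparisons used limma 3.58.1 (R 4.3.3, eBayes with trend, Benjamini-Hochberg over all genes with RPKM of at least 1 in 2 libraries, or in 3 for CCL17), called at an adjusted p under 0.05. All 10 Th17 libraries entered the fits, except that the CCL17 comparison used its own 6. Folds are on the log2(RPKM + 1) scale, which understates changes of low genes. Residuals of same-numbered libraries of the CCL17 experiment correlated at 0.77, 0.51 and 0.52, each over 0.1, and on that rule the numbers were taken to pair them. Replicates 2 and 3 correlated as much across numbers (0.50 and 0.53). A correlation of 0.45, also over 0.1, was found between the 2 DKI and WT pairs. With 2 libraries per group the residuals mirror each other, so that it is 1 value for both pairs. The main fits for CCL17 and for DKI against WT used no pairing, and the replicate block was an alternative. Replicate 1 of the CCL17 experiment correlated at -0.62 to -0.65 with replicates 2 and 3 of the other group. Myeloid groups have 1 library each and no test. On simulated data, shifts of 1 and 2 on the log2 scale were recovered for 64% and 84% of genes for DKI against WT, 81% and 94% for CCL17, and 72% and 95% for DKI without CCL17 against DKI. The simulated noise was independent between libraries, unlike the correlated residuals above. These rates are averages over randomly chosen genes and do not give the power for any member. The members and lists were chosen with earlier results of these data known. Named genes are the members, a set of partner genes, up to 4 genes per partner list by p or difference, and the nearest profiles. The IL-36 genes were found through older symbols, and Il36rn was not analysed here.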

Additional observations from a re-analysis of the deposited data

How the results depend on the processing

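Most values kept their direction and their side of the threshold under other pseudocounts, filters, scalings and variance priors. Quantile normalization gave 7 called genes for DKI against WT, 1 higher and 6 lower, and turned the log2 fold of Casp4 with CCL17 to 0.01. It changed the split for DKI without CCL17 against DKI from 46.5% higher among 3823 calls to 35.9% among 4028. For the myeloid libraries, median centring subtracted the median difference over all genes counted. It turned the log2 difference of Casp1 between cord and marrow monocytes to 0.22 and moved the share of higher genes past 4-fold from 54.8% to 67.6%. With it 5 members were at least 4-fold higher in cord monocytes, in place of 4. Counting at 2-fold gave 7 members and 2494 genes for cord against marrow monocytes, and 0 members and 187 genes for APCs against cord monocytes. A fit of only the 5 libraries gave 4 members and 2423 genes for DKI without CCL17 against DKI. The replicate block gave 2 genes and 0 members for CCL17, and 0 genes for DKI against WT, and changed no member's call in either. For DKI without CCL17 against DKI, same-numbered residuals correlated at 0.13 and 0.10 only, and the block left 839 genes and 3 members (Il1a, Il1b and Il1rn), with limma adjusted p = 0.0754 for Nlrp3 and 0.263 for Casp1. Under it 0 of 19 signalling genes were called, and the calls of Il1f9, Il1rl1, Naip2, Aim2 and Gsdme were lost. The causes were not tested.

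Leaving out libraries gave 0 to 2 members and 0 to 580 genes for DKI against WT, 0 to 1 members and 0 to 213 genes for CCL17, and 4 to 6 members and 2513 to 3526 genes for DKI without CCL17 against DKI. The following log2 folds crossed 0. For DKI against WT they were Il1rn (-1.11 to 0.09), Il1r2 (-0.12 to 1.23), Il18 (-0.18 to 0.24), Casp4 (-0.11 to 0.83), Nlrp3 (-0.39 to 0.48) and Gsdmd (-0.33 to 0.03). For CCL17 they were Il1a (-0.80 to 0.10), Il1b (-0.46 to 0.17), Il1rn (-0.48 to 0.03), Il1r2 (-0.27 to 0.05), Il18 (-0.38 to 0.13), Casp4 (-0.25 to 0.18) and Nlrp3 (-0.32 to 0.15). Of these, Il1a, Il1rn and Il1r2 crossed 0 only without replicate 1 with CCL17. That fit kept replicate 1 without CCL17 and so broke the same-numbered pair. Within pairs the log2 differences of Il1a were -0.36, -0.35 and -0.34. For DKI without CCL17 against DKI they were Il1r2 (-0.15 to 1.20) and Il1r1 (-0.18 to 0.93). Depth limited Il1a in marrow monocytes, where its level rests on an estimated 14 reads.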

Other observations

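Other ratios within a library belong to no comparison made above. The RPKM of Il1a over that of Il1b was 0.792, 1.24 and 1.17 in DKI Th17 cells with CCL17, 1.13, 1.32 and 1.35 without CCL17, 0.336 and 0.174 in DKI cells, 0.273 and 0.175 in WT cells, 0.1 in cord APCs, 0.103 in cord monocytes and 0.0545 in marrow monocytes. Il1a RNA was therefore at about the level of Il1b RNA in the CCL17 experiment and well below it in all other libraries. The RPKM of Il18bp over that of Il18 was 8.72 in cord APCs, 4.58 in cord monocytes and 0.437 in marrow monocytes, the only library of the 13 in which the binding protein's RNA was below that of the cytokine. The levels of Il1r1 in the CCL17 experiment stayed between 5.08 and 5.26 in all 6 libraries, a narrower range than the 4.22 to 5.32 of the 2 DKI libraries.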
